A study of Oryza sativa with 12 samples.

Results

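Pathogenesis-related (PR) proteins are small plant proteins that accumulate when a plant meets a pathogen or is treated with a chemical that primes its defences. The 5 genes described here, of 33277 in the deposited tables, were picked by identifier, with earlier results of these data known. The PR10-type members are PBZ1 (OS12G0555500), annotated as the probenazole-inducible protein, and OS12G0555000 and OS12G0555200, both annotated only as similar to PBZ1. The PR1-type members are OS07G0129200, annotated as similar to PR1a, and OS01G0382000, annotated as similar to the precursor of PRB1-2. All 5 were present in all 6 tables under descriptions that match these types.

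RNA came from rice crowns, the stem base from which leaves and crown roots emerge. The Zn-efficient genotypes were IR55179-3B-11-3, Nipponbare and RIL46, and the Zn-inefficient ones IR64, IR74 and Kinandang Patong. Each genotype gave 1 library after 8 days in full-strength Yoshida nutrient solution with 1.5 µM ZnSO4 and 1 library after 8 days with 0 µM ZnSO4. All groups had 1 mM KHCO3 and 0.1% agar in that solution, so 12 libraries formed 4 groups of 3, and libraries within a group are different genotypes. Values per library were not analysed here, since each table gives only a mean over all libraries and a contrast. P-values therefore rest on the spread between different genotypes, with 1 spread per gene for all 4 groups and not 1 per class. A class difference is one between these 3 and 3 genotypes. The build named in the submitters' processing notes is IRGSP-1.0, the genome of Nipponbare, and the part of sequence differences between genotypes in the counts was not tested. Of 10 marker genes of shoot meristem, crown root, green leaf and root, 8 had a mean of at least 20 normalized counts, by the authors' deposited table. The other two, both copies of the Rubisco small subunit, had the lowest means, from 7.91 counts upwards, by the authors' deposited table. None of these 10 markers was called changed in any comparison between 2 groups.

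PR1 proteins are secreted proteins of the CAP superfamily, and in Arabidopsis PR1 transcripts are a standard readout of salicylic acid signalling. PR10 proteins are mostly intracellular, share the fold of the birch pollen allergen Bet v 1 and bind small hydrophobic molecules. Probenazole is a compound used on rice to protect it against blast, and PBZ1 takes its name from its induction by it.

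For 2 of the 3 PR10 members, the Zn response was larger in inefficient than in efficient genotypes. Within a class, 0 of the 3 passed the authors' test of a change beyond 2-fold, and in efficient genotypes their intervals spanned 0. In the inefficient genotypes the log2 fold change of OS12G0555200 was 2.90 (SE 0.61), that of PBZ1 2.61 (SE 0.69) and that of OS12G0555000 2.17 (SE 0.56), by the authors' deposited table. In the efficient genotypes the corresponding values were −0.57 (SE 0.61), −0.64 (SE 0.69) and −0.27 (SE 0.56), by the authors' deposited table. In crowns as bulk tissue, more cells of a type that holds these transcripts and more transcript per cell cannot be told apart. The difference of the 2 responses, inefficient minus efficient, was 3.47 (SE 0.86; adjusted p = 0.00603) for OS12G0555200 and 3.26 (SE 0.98; adjusted p = 0.0398) for PBZ1, derived from the authors' deposited table. For OS12G0555000 it was 2.44 (SE 0.79) and did not pass (adjusted p = 0.0734), derived from the authors' deposited table. These adjusted p-values come from a two-sided normal test of any difference, with Benjamini-Hochberg adjustment over 24127 genes. Called in this direction were 2 of 5 members, against 1.58% of all genes tested. Without the filter on low counts PBZ1 did not pass (adjusted p = 0.0537), and with a null of at most 2-fold neither did (adjusted p = 1 for both). At an unadjusted p under 0.05, 3 of 5 members were higher, against 4.55% of genes. The members were picked with earlier results of these data known, so no count of members here or below tests them as a set. The PR10 members lie close together in identifier order, come from the same libraries and may share reads, so they are not independent observations.

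**Figure D1:**
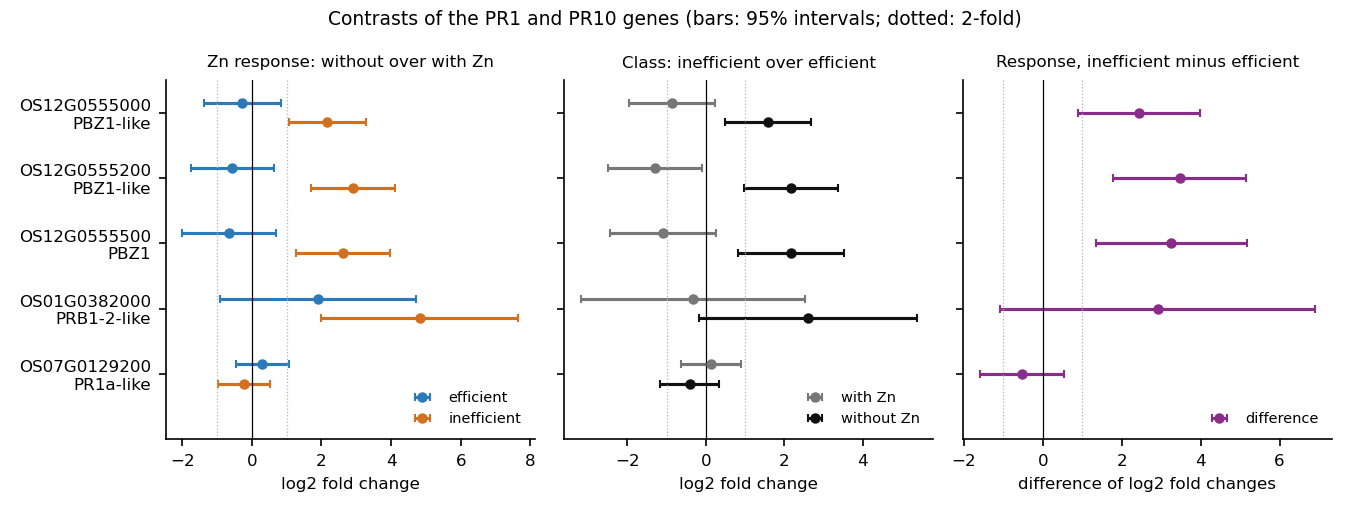
Log2 fold changes of the 5 members with 95% intervals, for the Zn response in each class (left), the difference between classes at each supply (middle) and the difference of the responses (right); dotted lines mark 2-fold. The intervals of all 3 PR10 members lie above 0 in inefficient genotypes and span 0 in efficient ones, while those of OS07G0129200 span 0 throughout.

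Derived group levels show where the PR10 difference sat. Means per group were solved from the mean over all libraries and the contrasts of the authors' deposited table. In inefficient genotypes PBZ1 lay at 366 normalized counts with Zn and 2244 without it, and in efficient ones at 787 with Zn and 503 without it, derived from the authors' deposited table. OS12G0555200 lay at 134 and 1001 counts in inefficient genotypes with and without Zn, and at 331 and 223 in efficient ones, derived from the authors' deposited table. OS12G0555000 lay at 605 and 2718 counts in inefficient genotypes with and without Zn, and at 1093 and 907 in efficient ones, derived from the authors' deposited table. The order of the groups was thus the same for the 3 PR10 members: inefficient with Zn lowest, then efficient without Zn, efficient with Zn, and inefficient without Zn highest.

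Most of the neighbours in that order could not be separated. For each PR10 member the 95% intervals of the lower 2 steps between neighbouring groups spanned 0. The topmost step, inefficient without Zn over efficient with Zn, was 1.60 on the log2 scale for OS12G0555200 (95% interval 0.41 to 2.79), derived from the authors' deposited table. For PBZ1 it was 1.51 (95% interval 0.16 to 2.86) and for OS12G0555000 1.31 (95% interval 0.22 to 2.41), derived from the authors' deposited table. The group of inefficient genotypes without Zn thus had, for every PR10 member, a difference from each of the other 3 groups whose interval excluded 0. These intervals are not adjusted for the 6 pairs of groups per gene.

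**Figure D2:**
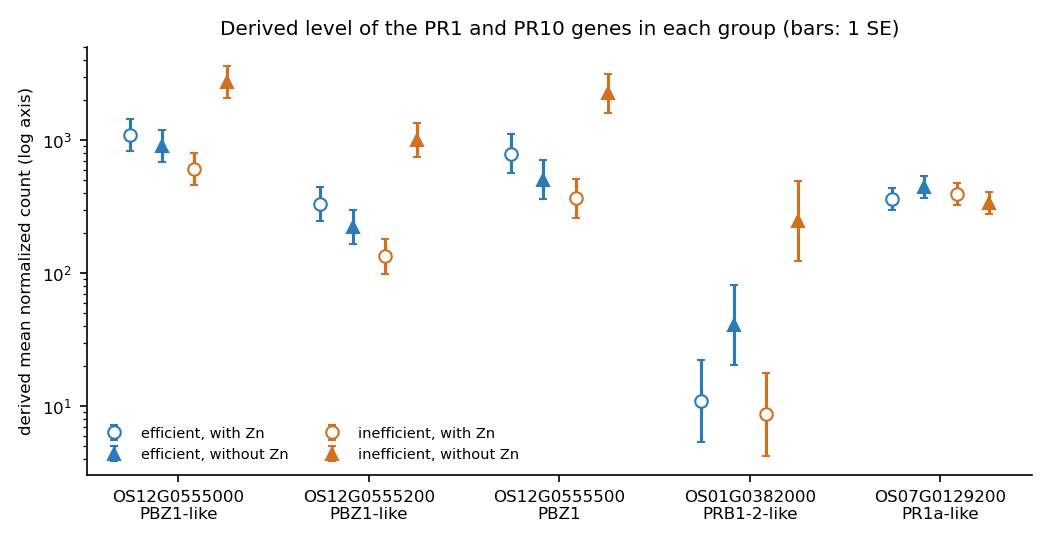
Derived mean normalized counts of the 5 members in the 4 groups on a log axis, with bars of 1 SE; open circles are with Zn, triangles without, blue efficient and orange inefficient. The triangle of the inefficient group is the highest point of the 3 PR10 members and of OS01G0382000, and the 4 points of OS07G0129200 lie close together; counts are not divided by gene length, so heights are not compared between genes.

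The authors' own test was stricter than the question of any change. It asked for a change beyond 2-fold, and by it 0 of 5 members passed in inefficient genotypes, where 3.50% of genes had an adjusted p under 0.05 (DESeq2). OS12G0555200 missed narrowly, at an adjusted p of 0.0502, while PBZ1 had 0.316 and OS12G0555000 0.518, by the authors' deposited table. At an unadjusted p under 0.05 in the same deposited table, 4 of 5 members were higher without Zn, against 3.35% of genes with a p-value. A test of no change on the deposited fold changes and SEs gave adjusted p-values of 2.09e-05 for OS12G0555200, 0.000968 for PBZ1 and 0.000728 for OS12G0555000. That test called 4 of 5 members higher, and it called 17.0% of all genes higher. The PR10 folds in inefficient genotypes were 7.48 for OS12G0555200 (95% interval 3.27 to 17.1), 6.13 for PBZ1 (2.40 to 15.6) and 4.49 for OS12G0555000 (2.10 to 9.61), derived from the authors' deposited table. All 3 lower bounds were above 2-fold, but these intervals are not adjusted for the number of genes.

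In efficient genotypes 0 of 5 members passed, against 0.280% of genes (DESeq2). At an unadjusted p under 0.05 it was 0 of 5 against 0.837% of genes, and by the test of no change 0 of 5 against 7.86%. The intervals there limit what could have been missed. For PBZ1 the 95% interval of the fold ran from 0.251 to 1.63, for OS12G0555200 from 0.295 to 1.54 and for OS12G0555000 from 0.388 to 1.77, derived from the authors' deposited table. A 2-fold higher level of any PR10 member without Zn lay outside these intervals, while a 2-fold lower level lay inside them.

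Between the classes, the PR10 values had opposite signs with and without Zn. With Zn the point estimates put the inefficient class lower, by a log2 fold change of −1.31 (SE 0.61) for OS12G0555200, −1.10 (SE 0.69) for PBZ1 and −0.85 (SE 0.56) for OS12G0555000, by the authors' deposited table. Without Zn it was higher, by 2.17 (SE 0.61), 2.16 (SE 0.69) and 1.58 (SE 0.56) in the same order, by the authors' deposited table. Neither set of values passed the authors' test, with 0 of 5 members called without Zn, against 0.298% of genes, and 0 of 5 with Zn, against 0.00923% (DESeq2). At an unadjusted p under 0.05 it was 0 of 5 in both tables, against 1.31% of genes without Zn and 0.206% with Zn. By the test of no change, OS12G0555200 (adjusted p = 0.0145) and PBZ1 (adjusted p = 0.0454) were higher in the inefficient class without Zn, 2 of 5 members against 2.44% of genes. With Zn that test called 0 of 5 members, against 0.0677% of genes.

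In the comparisons pooled over classes or over supplies the PR10 values were smaller. The pooled Zn response was 1.17 (SE 0.62) for OS12G0555200, 0.95 (SE 0.51) for OS12G0555000 and 0.99 (SE 0.63) for PBZ1, by the authors' deposited table. Of the 4 members with a p-value 0 passed there, against 1.12% of genes, and 0 in the class difference over both supplies, against 0.0524% (DESeq2). At an unadjusted p under 0.05, 1 member, OS01G0382000, was higher without Zn, against 2.19% of genes. In the class difference it was 0, against 0.579% of genes, and 0 by the test of no change, against 0.804%. PBZ1 had no p-value at all in the 2 pooled tables, which was so for 113 genes that had one in the comparisons of 2 groups. DESeq2 can withhold a p-value from a gene when the count of a single library is extreme for the model, and whether a library was extreme for PBZ1 was not tested.

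The SEs of the PR10 members were also larger in the pooled tables than the within-class tables would give. Combining the SEs of both classes for PBZ1 gives 0.488 for the mean Zn response, while the pooled table had 0.634, a ratio of 1.30. This ratio was 1.43 for OS12G0555200 and 1.28 for OS12G0555000, and 98.0%, 95.6% and 95.1% of 19875 genes had a lower one than OS12G0555200, PBZ1 and OS12G0555000. For OS01G0382000 and OS07G0129200 it was 1.04 and 1.00, near the median of 0.972 over these genes. The PR10 genes thus had larger SEs in the pooled tables, relative to the tables of 2 groups, than most genes. The terms of the pooled fit are not stated. In a fit without a term for class by Zn, responses that differ between classes count as spread. Since the terms of the pooled fit are not stated, whether these ratios are separate from the response difference above cannot be told. They are not counted as a separate result, and what raised them was not tested.

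A spread between libraries of a group, which are different genotypes, is implied by the SEs under the negative binomial model of DESeq2. It is a value of the authors' fit and was not measured from counts per library. The implied coefficient of variation was 47.4% for OS12G0555000, 51.2% for OS12G0555200 and 58.4% for PBZ1, against a median of 21.9% over genes with a mean of at least 20. For OS07G0129200 it was 32.2%, and for OS01G0382000 it was 120%, higher than in 97.0% of those genes. The lowest and highest estimates from the 4 group contrasts of OS01G0382000 were 119.7% and 119.8%. The deposited SEs thus carry 1 spread per gene for all 4 groups, and whether the spread differed between classes cannot be told from them.

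**Figure D3:**
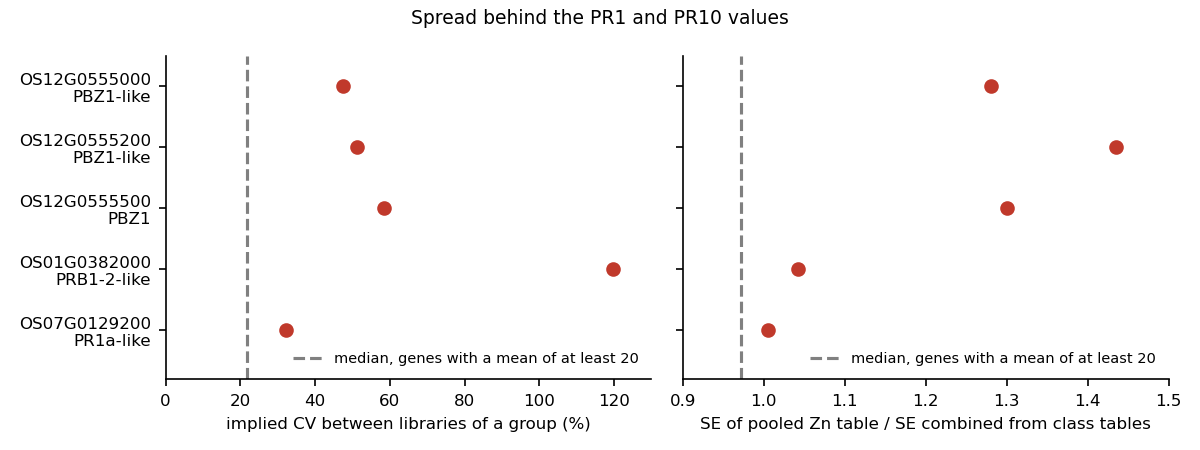
Implied coefficient of variation between libraries of a group in percent (left) and SE of the pooled Zn response divided by the SE combined from both classes (right), for the 5 members; dashed lines are medians over genes with a mean of at least 20. OS01G0382000 stands at 120% on the left, and the PR10 members stand at 1.28 to 1.43 on the right.

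The PR1-type members did not resemble each other. OS01G0382000 had the larger Zn values, with a log2 fold change of 4.82 (SE 1.44) in inefficient and 1.90 (SE 1.44) in efficient genotypes, by the authors' deposited table. Its derived means were 8.72 and 246 normalized counts in inefficient genotypes with and without Zn, and 10.9 and 40.8 in efficient ones, derived from the authors' deposited table. OS07G0129200 lay between 336 and 446 counts in all 4 groups, derived from the authors' deposited table. All 6 intervals between pairs of its groups spanned 0.

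OS01G0382000 did not pass the authors' test in either class, at an adjusted p of 0.163 in inefficient and 1 in efficient genotypes (DESeq2). The test of no change gave 0.00414 in inefficient and 0.549 in efficient genotypes. Over both classes its value was 3.36 (SE 1.06), not past the authors' test (adjusted p = 0.831 there, by the authors' deposited table) but past the test of no change (adjusted p = 0.00682), which called 17.9% of genes higher. Its fold in inefficient genotypes was 28.2, with a 95% interval from 3.99 to 200, derived from the authors' deposited table. That interval is the widest of the members.

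For OS01G0382000 the difference of the responses was 2.92 (SE 2.04; adjusted p = 0.710), derived from the authors' deposited table. This is close in size to the PR10 differences, yet its 95% interval from −1.07 to 6.90 includes both no difference and a difference larger than theirs. Without Zn, its level in the inefficient class over the efficient one was 2.59 (SE 1.42) on the log2 scale, by the authors' deposited table, and with Zn −0.32 (SE 1.46). Of the 6 pairs of groups, 2 had an interval that excluded 0, both with the inefficient group without Zn on the higher side and a group with Zn on the lower.

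OS07G0129200 gave the narrowest intervals of the members. Its log2 fold change was 0.31 (SE 0.38) in efficient and −0.23 (SE 0.38) in inefficient genotypes, by the authors' deposited table. The difference of the responses was −0.54 (SE 0.54; adjusted p = 0.913), with a 95% interval from −1.60 to 0.53, derived from the authors' deposited table. The interval of its fold in inefficient genotypes ran from 0.505 to 1.44, derived from the authors' deposited table, which leaves out a doubling. A difference as large as that of any PR10 member lay outside the interval of OS07G0129200.

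The other genes of these types gave no calls. The 6 other loci described as Bet v 1 or PR10-type were all tested, and 0 were called in either class or in the difference. Over all genes, 0.280% were called in efficient and 3.50% in inefficient genotypes, and 570 of 24127 for the difference. At such shares, the lack of a call among 6 genes is no result about their type. In inefficient genotypes 4 of 6 were positive, with a median log2 fold change of 0.79, against 3 of 3 and 2.61 for the PR10 members and 0.00312 over all genes tested. The descriptions of OS12G0555100 and OS12G0555300 place them with PBZ1, and their identifiers lie between those of the members, but their means were 12.0 and 16.6 normalized counts, by the authors' deposited table. OS12G0555300, described as similar to PR-10a, had −2.26 (SE 1.19) in efficient and 2.63 (SE 1.23) in inefficient genotypes, by the authors' deposited table. Its difference of 4.89 (SE 1.71) did not pass (adjusted p = 0.109), derived from the authors' deposited table. OS12G0555100 had positive values in both classes, 3.27 (SE 1.21) and 4.25 (SE 1.38), by the authors' deposited table.

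JIOsPR10 (OS03G0300400), a PR10 protein named for its induction by jasmonic acid, had 1.07 (SE 0.55) in efficient and 1.53 (SE 0.55) in inefficient genotypes, by the authors' deposited table. Its response difference was 0.46 (SE 0.78; adjusted p = 1.00), derived from the authors' deposited table. The Bet v 1 family gene OS08G0374000 lay the opposite way in both classes, at −2.21 (SE 0.40) and −2.14 (SE 0.40), by the authors' deposited table, with adjusted p-values of 0.538 and 0.102. The PR10 type thus held values of either sign.

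Of 28 other PR1-type loci, 17 were tested in efficient, 15 in inefficient genotypes and 15 for the difference, and 0 were called in any of these. Over all genes the shares called were 0.280% and 3.50% in these classes and 570 of 24127 for the difference. The lack of a call among so few loci is thus no result about their type. The remaining ones had no adjusted p-value. In inefficient genotypes 9 of 15 were positive at a median of 0.36, and the median difference was −0.03. OS07G0129300, which follows OS07G0129200 in identifier order and is also described as similar to PR1a, had 2.45 (SE 1.59) in inefficient and 0.14 (SE 1.59) in efficient genotypes, by the authors' deposited table. OS01G0382400, the other locus described as similar to PRB1-2, had 0.22 (SE 0.94) and 0.52 (SE 0.93) in inefficient and efficient genotypes, by the authors' deposited table. The SEs of both loci were large, and neither was compared with the member of the same description by a test.

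The largest of the remaining PR families listed were the chitinases. Those of families PR3 and PR8 cleave chitin of fungal walls, and 5 of 31 tested rose in inefficient genotypes while 0 of 32 were called in efficient ones. Over all genes, 584 of 24127 rose in inefficient genotypes and 73 of 26062 were called in efficient ones. A higher response in inefficient genotypes was called for 381 of 24127 genes. The median log2 fold change of the chitinases was 1.87 in inefficient and 0.74 in efficient genotypes, and 3 of 31 had a higher response in inefficient genotypes. OS10G0542900 rose by 4.56 (SE 0.61; adjusted p = 6.26e-07) and the acidic class III chitinase gene OS01G0660200 by 2.94 (SE 0.33; adjusted p = 9.43e-07), by the authors' deposited table. OS03G0132900, similar to chitinase 11, rose by 3.96 (SE 0.74; adjusted p = 0.00345), by the authors' deposited table. In efficient genotypes these 3 genes had 1.67 (SE 0.61), 1.37 (SE 0.33) and 2.80 (SE 0.75), by the authors' deposited table.

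Of the PR2 glucanases, which cleave beta-1,3-glucan, 0 of 10 tested in inefficient and 0 of 12 in efficient genotypes were called, with medians of 0.61 and 0.35. Of the barwin-type PR4 genes, 1 of 7 rose in inefficient genotypes, OS11G0592000 at 2.43 (SE 0.42; adjusted p = 0.0200) against 0.46 (SE 0.42) in efficient ones, by the authors' deposited table. Of the thaumatin-like PR5 genes, 0 of 21 rose and 2 fell in inefficient genotypes. These were OS10G0146200 at −2.65 (SE 0.36; adjusted p = 0.000269) and OS06G0691200 at −2.78 (SE 0.44; adjusted p = 0.00243), by the authors' deposited table. The median of the 21 was 0.51, and 13 of them were positive. Over all genes tested in inefficient genotypes, 584 of 24127 rose and 260 fell.

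**Figure D4:**
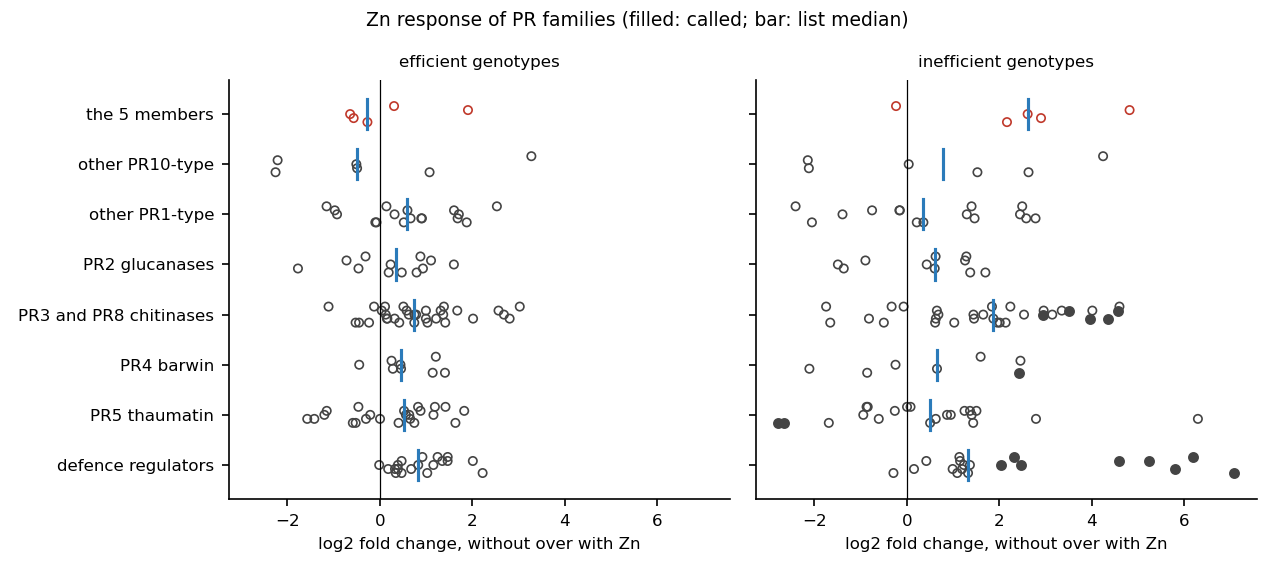
Log2 fold change without over with Zn in efficient (left) and inefficient (right) genotypes for the 5 members (red) and the tested genes of each context list; filled points passed the authors' test and blue bars are list medians. In inefficient genotypes filled points appear among chitinases, barwin, thaumatin-like genes and defence regulators, and none among the members.

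Listed, with results known, were 19 regulators of defence for salicylic acid signalling, WRKY factors and phenylpropanoid entry. In inefficient genotypes 8 passed the authors' test as higher, and 18 of 19 values were positive, at a median of 1.33. In efficient genotypes 0 passed it, but 18 of 19 values were positive there too, at a median of 0.83. For 9 regulators the response was called higher in inefficient than in efficient genotypes. Over all genes tested, 584 of 24127 were called higher in inefficient and 64 of 26062 in efficient genotypes, and 1.58% had a higher response. Since the list was drawn up with results known, these counts say nothing particular to regulators. WRKY45 (OS05G0322900), the factor of benzothiadiazole-inducible blast resistance, rose by 4.59 (SE 0.33; adjusted p = 7.01e-24), by the authors' deposited table. The phenylalanine ammonia-lyase gene OS04G0518400 rose by 5.23 (SE 0.48; adjusted p = 7.19e-16) and the WRKY gene OS05G0343400, annotated for disease resistance, by 2.33 (SE 0.16; adjusted p = 3.30e-14), by the authors' deposited table. In efficient genotypes these 3 had positive values of 1.35 (SE 0.34), 2.01 (SE 0.49) and 1.25 (SE 0.16), by the authors' deposited table.

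The loci around the members in identifier order were also counted. Of 5 loci before and 5 after the PR10 members, 0 were called in either class or in the difference, and the 9 tested for it had differences from −1.54 to 1.37. Around OS01G0382000, 0 of 10 loci were called, but only 7 of them were tested for the difference. Around OS07G0129200, where 7 of 10 loci were tested for the difference, 2 rose in inefficient genotypes. These were the lectin-like receptor kinase genes OS07G0129800 at 4.19 (SE 0.82) and OS07G0129900 at 5.41 (SE 0.75), by the authors' deposited table. Among all genes tested, 584 of 24127 were called higher in inefficient genotypes. The response of OS07G0129900 was also higher in inefficient than in efficient genotypes, by 4.35 (SE 0.90; adjusted p = 0.000335), derived from the authors' deposited table. Identifier order stands for chromosome order here, since coordinates were not used.

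The genes most like each member were found by the distance of 3 log2 values, the Zn responses of both classes and the class difference with Zn, among 14485 genes that had a described product and whose mean was at least 20. PBZ1 and OS12G0555200 lay 0.361 log2 units apart. OS12G0555200 was the nearest of all genes to PBZ1, and PBZ1 the second nearest to OS12G0555200. Closest to OS12G0555200 was OS02G0570400, described as similar to ent-kaurene synthase 1A, a diterpene cyclase, at 0.179. Its values were −0.72 (SE 0.79) in efficient and 2.97 (SE 0.79) in inefficient genotypes, by the authors' deposited table. After these came, for PBZ1, the cytochrome P450 gene OS02G0569900 at 0.449, whose values were −0.67 (SE 1.04) and 2.29 (SE 1.04), by the authors' deposited table.

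OS12G0555000 lay 0.633 from PBZ1, which was only its rank 24. Its nearest gene was an O-methyltransferase-like gene (OS04G0104900) at 0.366, followed by RIR1a (OS10G0569400) and the harpin-induced domain gene OS03G0836300, both at 0.389. Nearest to OS01G0382000 were a disease resistance response domain gene (OS01G0879200) at 0.312 and a calmodulin-like gene (OS01G0955100) at 0.342. An F-box gene (OS10G0520100) followed at 0.348. OS01G0382000 and OS07G0129200 lay 5.32 apart, farther than any other pair of members. OS07G0129200 had its nearest gene, an NAD(P)-binding domain gene (OS04G0403500), at 0.0537. These distances do not take the SEs into account, and they are a description over 3 values that share the groups with Zn.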

How the data were processed

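RNA from 12 crown libraries was processed by the authors; the submitters' processing notes name build IRGSP-1.0, HISAT2 2.0.4 and DESeq2 1.12.3, with no order of steps. They also name Trimmomatic 0.36, FastQC 0.11.5 and Subread 1.5.0-p3 (featureCounts). The sources used here do not give how reads shared by near-identical loci were counted, so the split between the PR10 loci is uncertain. The deposited mean is the authors' mean normalized count (a signal on the scale of DESeq2 size factors). Beside it stand the authors' log2 fold change and SE, a score (the test statistic) and, as deposited, p-values raw and adjusted. The score is 0 for changes under 2-fold, per the file values, and recomputing the p-value from it gave differences of at most 2.78e-15. A deposited adjusted p under 0.05 was called.

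Means per group were solved from the mean over all libraries and the contrasts, weighing groups alike; the contrasts of all members closed to within 0.01 log2 units. Intervals are 95% normal intervals from the SEs. The difference of responses was set against its SE (both variances summed), with Benjamini-Hochberg adjustment over genes with an adjusted p in both classes. Its computation was run on simulated fold changes with normal noise drawn from the deposited SEs. Such a run cannot show whether those SEs or the normal model hold for 3 genotypes per group. The spread between libraries was solved from the SEs as variance 1/mean plus dispersion over 3 libraries per group. Most of the listed families were taken by product description and the regulators by identifier; up to 3 called genes per list with the smallest p are named, and further ones are named for their type, description or place beside a member. Members, lists and tests were chosen with earlier results of these data known. Depth per library was not analysed here. No sequence is printed, since promoter and protein sequences were not used here. Computations ran in Python 3.11.15 (numpy 2.4.6, scipy 1.17.1, pandas 2.3.3); plots used matplotlib 3.10.9.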

Additional observations from a re-analysis of the deposited data

Results flagged for a closer look

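The Zn response of 2 members and of 6 named genes of the context lists differed between the classes by the test of the difference itself, inefficient minus efficient, derived from the authors' deposited table. Among the members these were OS12G0555200 at 3.47 and PBZ1 (OS12G0555500) at 3.26 on the log2 scale. The chitinase genes OS10G0542900 and OS01G0660200 had 2.89 (SE 0.86; adjusted p = 0.0369) and 1.57 (SE 0.47; adjusted p = 0.0416). The barwin-type gene OS11G0592000 had 1.98 (SE 0.59; adjusted p = 0.0374). WRKY45 (OS05G0322900) had 3.24 (SE 0.48; adjusted p = 1.71e-08), the phenylalanine ammonia-lyase gene OS04G0518400 had 3.22 (SE 0.69; adjusted p = 0.000589) and the WRKY gene OS05G0343400 had 1.08 (SE 0.22; adjusted p = 0.000362). In all 8 the response was higher in inefficient genotypes. The members were picked with results known and the other genes for small p-values, so this shared direction is not a separate result. Among all genes called for the difference, 381 were higher and 189 lower in inefficient genotypes.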

How the results depend on the processing

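These settings leave the fold changes as deposited and alter only the p-values, the threshold or the genes adjusted over. Among recounts of the members called under other settings, 29 stayed at the reported count or within 1.5 times of it. Most of these were counts of 0, which a setting that only raises p-values cannot change. Taking the difference of the responses from the class tables repeats the same contrast, and the SEs of that difference were widened only 1.0002 times. These recounts therefore do not measure how stable the calls are. In inefficient genotypes the count of 0 became 4 with a test of no change, 1 at a threshold of 0.1 and 1 when only genes with a mean of at least 20 were adjusted over, OS12G0555200 in both of the latter (adjusted p = 0.0446 in the last). The test of no change gave 2 members for the class difference without Zn and 1 for the Zn response over both classes. For the difference of the responses the count of 2 fell to 1 without the filter on low counts, where PBZ1 had an adjusted p of 0.0537, and to 0 when the null was a difference of at most 2-fold. With the SEs of the inefficient class widened 2.24 times, the robust spread across genes, 0 members passed. That outcome was fixed beforehand, since 0 passed without the widening. Leaving out single libraries was not run, for want of such values, nor was a genotype block, so the part of any 1 genotype in the PR10 values was not tested. No paired analysis was possible because values per library were not analysed here, although each genotype was grown with and without Zn.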

Other observations

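Some further WRKY genes of the regulator list, named after their values were seen, had some of the largest values among the genes described here. WRKY76 (OS09G0417600) and WRKY62 (OS09G0417800), which are neighbours by identifier, rose in inefficient genotypes by 7.08 (SE 0.84; adjusted p = 1.32e-10) and 6.20 (SE 0.78; adjusted p = 5.91e-09), by the authors' deposited table. In efficient genotypes they had 2.22 (SE 0.81) and 1.47 (SE 0.77), by the authors' deposited table, and their responses differed by 4.86 (SE 1.17; adjusted p = 0.00406) and 4.73 (SE 1.09; adjusted p = 0.00234). WRKY28 (OS06G0649000) had 0.68 (SE 0.52) in efficient and 5.79 (SE 0.60) in inefficient genotypes, with a difference of 5.12 (SE 0.79; adjusted p = 1.13e-07). Not all listed WRKY genes were called. The difference was −0.63 (SE 0.65; adjusted p = 0.918) for WRKY30 (OS08G0499300) and 0.69 (SE 0.30; adjusted p = 0.292) for WRKY13 (OS01G0750100). The NPR1-like gene OS03G0667100, of the family of salicylic acid receptors, had −0.02 (SE 0.30) in efficient and 1.37 (SE 0.29) in inefficient genotypes, by the authors' deposited table, with a difference of 1.38 (SE 0.42; adjusted p = 0.0436). Its 1.37 did not pass the authors' test. Other listed genes of salicylic acid signalling were mixed. The difference was 0.81 (SE 0.18; adjusted p = 0.000802) for OS01G0767900, but 0.62 (SE 0.42; adjusted p = 0.689) for OS01G0194300, described as similar to NPR1. For the isochorismate synthase domain gene OS09G0361500 it was −1.04 (SE 1.54) and did not pass. For OS11G0195500, listed as PAD4, it was 1.21 (SE 0.25; adjusted p = 0.00035). The Zn response of OS11G0195500 in inefficient genotypes was 2.04 (SE 0.18) and passed the authors' test (adjusted p = 5.82e-07). For OS09G0392100, listed as EDS1, the difference was −0.02 (SE 0.24) and did not pass.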
